A study of Mus musculus with 44 samples.

Results

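The cluster of miR-183, miR-96 and miR-182 gives rise to 3 main microRNAs (miRNAs), listed as mmu-miR-183-5p, mmu-miR-96-5p and mmu-miR-182-5p, and is described here in the hypothalamus of mice, a brain region that controls hunger and body weight. The members were taken by name from a table of read counts, and all 3 of 3 were found among the 1978 mature miRNAs listed. A miRNA is a short RNA that binds messenger RNAs through its seed, bases 2 to 8 from its 5′ end, and lowers their output. The cluster is best known from sensory cells: it is abundant in photoreceptors of the retina, hair cells of the inner ear and sensory neurons, and it is also found in the pineal gland, the pituitary and many epithelia. Mutations in the seed of miR-96 cause hearing loss in mice and people. The hairpins lie close together and are transcribed as 1 precursor, so the mature forms are usually found together.

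The data are small RNA sequencing libraries of 44 C57Bl/6J mice. AM132 (16 libraries) came from mice made obese by 11 weeks of high-fat diet and injected intravenously with a locked nucleic acid oligonucleotide of 16 nt against miR-132. AM608 (16 libraries) came from equally fed mice given one of 15 nt against miR-608, a primate miRNA, as the control. Both were given at 3.3 mg/kg on 3 consecutive days, and tissue was taken 7 days later. RCD (12 libraries) came from lean, age-matched mice on regular chow, which the labels do not describe as injected, so diet and injection cannot be told apart. The labels give 4 batches without saying what a batch was: batches 1 and 3 hold 4 AM132 and 4 AM608 libraries each, batch 2 holds 8 AM132, 8 AM608 and 4 RCD, and batch 4 holds 8 RCD. Nothing says whether mice were pooled, and p-values measure the spread between these libraries. Totals ran from 3020192 to 5997234 miRNA counts per library. Levels are given as CPM, the read count scaled to a common library size with TMM factors, and as the log2 of that value. The neuronal miRNAs used to check the tissue (miR-124-3p, miR-9-5p, miR-128-3p, miR-138-5p, miR-129-5p and miR-153-3p) were all detected, summing to 107336 CPM or more in every library.

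The mature sequences are shown because the members differ in the seed that selects their targets. They are from RefSeq on GRCm38.p6, 5′ to 3′, with the seed in capitals, and all 4 names matched.
miR-183-5p: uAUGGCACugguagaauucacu
miR-96-5p: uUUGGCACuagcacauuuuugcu
miR-182-5p: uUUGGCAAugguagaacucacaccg
miR-1271-5p: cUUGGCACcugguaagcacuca
Counting from 1 at the 5′ end, miR-182-5p and miR-96-5p shared bases 2 to 7 and differed in the seed by A8C. miR-96-5p and miR-183-5p differed in the seed by U2A. Over the whole length, seed included, the likeness was different: miR-182-5p and miR-183-5p matched at 18 of 22 positions from the 5′ end, while miR-96-5p matched miR-183-5p at 13 of 22 and miR-182-5p at 12 of 23. Among the 1679 mature mouse miRNAs of the RefSeq table, the only other one with the full seed of miR-96-5p was miR-1271-5p, from chromosome 13, which had 0 counts in all 44 libraries. No other listed miRNA had bases 2 to 7 of miR-183-5p.

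The 3 hairpins lie on the minus strand of chromosome 6 within 3820 bases. Mir183 is at chr6:30169668-30169737, Mir96 at chr6:30169446-30169551 and Mir182 at chr6:30165918-30165992. Only 116 bases separate Mir96 from Mir183, and 3453 bases separate Mir182 from Mir96. All lie within the RefSeq noncoding gene Mirc35hg (chr6:30158640-30174125), whose exons were not used here. The hairpins are printed from RefSeq with both mature arms in capitals, since the arms differed widely in their counts.
Mir183: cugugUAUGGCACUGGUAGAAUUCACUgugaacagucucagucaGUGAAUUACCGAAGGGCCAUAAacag
Mir96: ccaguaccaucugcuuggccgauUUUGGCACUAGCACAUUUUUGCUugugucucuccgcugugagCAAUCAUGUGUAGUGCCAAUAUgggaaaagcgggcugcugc
Mir182: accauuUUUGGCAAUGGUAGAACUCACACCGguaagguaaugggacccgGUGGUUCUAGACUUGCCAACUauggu
In each hairpin nearly all reads came from the 5p arm, the first in capitals. miR-183-5p had 15827 counts over the 44 libraries and miR-183-3p had 20. miR-182-5p had 14425 counts and miR-182-3p had 42. miR-96-5p had 3338 counts and miR-96-3p had 6. The 3p arm was thus 0.126% of the reads of its hairpin for miR-183, 0.29% for miR-182 and 0.179% for miR-96. The 3p arms were too sparse to be tested.

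All 3 members were detected in every library, at low levels. mmu-miR-183-5p had a median of 50.5 CPM over the 44 libraries (14.4 to 1012), rank 271 of 1978 by median. mmu-miR-182-5p had a median of 42.7 CPM (12.9 to 1250.4), rank 277. mmu-miR-96-5p was the least counted, with a median of 9.57 CPM (2.27 to 301.4), rank 401. Each read covers a whole miRNA, so no length scaling applies, but ligation can favour some sequences, and levels between members are compared only as read counts. The lowest count was 7 reads of miR-96-5p in AM608 1, a level before scaling with a Wilson 95% interval of 0.971 to 4.14 CPM. Such intervals describe counting error alone, because no molecular identifiers were used and reads can be copies of 1 molecule.

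**Figure D1:**
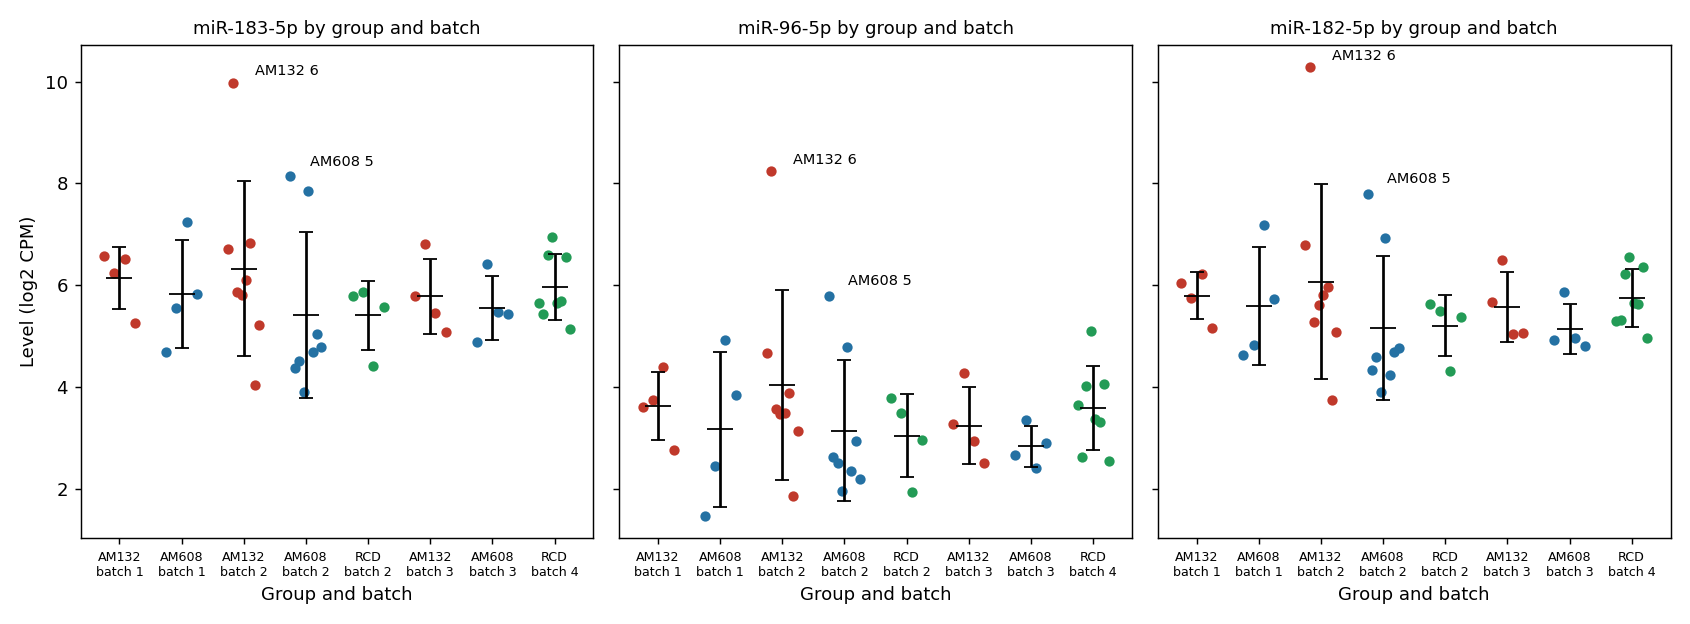
Levels of the 3 members (y axis, log2 CPM) in each library, by group and batch (x axis); points are libraries, and black bars are the mean ± SD of the libraries of that group and batch. AM132 6 stands above all other libraries for each member, AM608 5 is second, and the groups overlap in every batch.

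miR-183-5p, the member nearest the start of the precursor, is given first, in CPM. In batch 1 AM132 1 to 4 stood at 94.7, 74.8, 91.2 and 37.6, and AM608 1 to 4 at 25.3, 46.4, 150.2 and 56.6. In batch 3 AM132 13 to 16 stood at 54.4, 111.7, 43.5 and 33.3, and AM608 13 to 16 at 29.1, 84.6, 43.9 and 42.8. In both batches the groups overlapped: the highest library was AM608 3 in batch 1 and AM132 14 in batch 3. In batch 2 the lowest, median and highest library stood at 16, 63.3 and 1012 in AM132, and at 14.4, 26.3 and 281.2 in AM608. RCD 9 to 12 stood at 54.6, 58, 20.8 and 47.2 in batch 2, and the 8 RCD libraries of batch 4 ran from 34.9 to 122.1 (median 50.5). The AM608 libraries of batch 2 fell apart: AM608 5 and AM608 9 stood at 281.2 and 229.3, and the other 6 at 14.4 to 32.4.

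miR-182-5p, whose gene is the most distant of the cluster, ordered the libraries much as miR-183-5p did. AM132 1 to 4 stood at 65.1, 53.2, 74.4 and 35.4 CPM, and AM608 1 to 4 at 24.4, 27.9, 144.3 and 52.5. AM132 13 to 16 stood at 50.4, 89.8, 32.5 and 32.9 CPM, and AM608 13 to 16 at 29.8, 57.7, 30.6 and 27.4. In batch 2 AM132 ran from 12.9 to 1250.4 CPM (median 52) and AM608 from 14.4 to 222.3 (median 24.4). As for miR-183-5p, AM608 3 was the highest of its group in batch 1 and AM132 14 and AM608 14 the highest of theirs in batch 3. RCD 9 to 12 stood at 49.3, 44.4, 19.4 and 41.1 CPM, and batch 4 ran from 30.5 to 93 (median 49.4).

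miR-96-5p, the member tied to hearing, was lower throughout. AM132 1 to 4 stood at 11.8, 12.8, 20.5 and 6.26 CPM, and AM608 1 to 4 at 2.27, 4.95, 29.9 and 13.8. AM132 13 to 16 stood at 9.12, 18.8, 7.17 and 5.15 CPM, and AM608 13 to 16 at 5.86, 9.72, 4.83 and 6.94. The groups overlapped here too. In batch 2 AM132 ran from 3.15 to 301.4 CPM (median 11) and AM608 from 3.37 to 54.8 (median 5.45). RCD 9 to 12 stood at 13.3, 10.7, 3.33 and 7.29 CPM, and batch 4 ran from 5.37 to 34 (median 11).

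By the mean log2 CPM of a group in a batch, the order for miR-183-5p was AM132 in batch 2 (6.32 ± 1.72, SD, n = 8), AM132 in batch 1 (6.14 ± 0.61, n = 4), RCD in batch 4 (5.96 ± 0.65, n = 8), AM608 in batch 1 (5.83 ± 1.06, n = 4), AM132 in batch 3 (5.78 ± 0.74, n = 4), AM608 in batch 3 (5.55 ± 0.63, n = 4) and, level, AM608 (5.41 ± 1.63, n = 8) and RCD (5.41 ± 0.68, n = 4) in batch 2. For miR-182-5p it was AM132 in batch 2 (6.07 ± 1.91), AM132 in batch 1 (5.79 ± 0.46), RCD in batch 4 (5.74 ± 0.57), AM608 in batch 1 (5.59 ± 1.16), AM132 in batch 3 (5.57 ± 0.68), RCD in batch 2 (5.20 ± 0.60), AM608 in batch 2 (5.15 ± 1.41) and AM608 in batch 3 (5.14 ± 0.49). For miR-96-5p it was AM132 in batch 2 (4.04 ± 1.87), AM132 in batch 1 (3.62 ± 0.67), RCD in batch 4 (3.59 ± 0.83), AM132 in batch 3 (3.24 ± 0.75), AM608 in batch 1 (3.17 ± 1.52), AM608 in batch 2 (3.14 ± 1.38), RCD in batch 2 (3.04 ± 0.81) and AM608 in batch 3 (2.83 ± 0.40). No neighbours in these orders differed by more than their SD. Without AM132 5, AM132 6 and AM608 5 the batch 2 means of miR-183-5p were 5.65 ± 0.94 in AM132 (n = 6) and 5.02 ± 1.30 in AM608 (n = 7), so AM132 of batch 2 left the first place. Fewer cells of a type and less RNA per cell cannot be told apart in these tissue samples.

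AM132 6, an obese mouse given the oligonucleotide against miR-132, stood apart for every member. Its counts were 4011 for miR-183-5p, 4958 for miR-182-5p and 1195 for miR-96-5p, which is 25.3%, 34.4% and 35.8% of all reads of these miRNAs in the 44 libraries. Relative to the median of the other 7 AM132 libraries of batch 2 it was 17.4-fold higher for miR-183-5p, 26-fold for miR-182-5p and 27.9-fold for miR-96-5p. Before scaling, its miR-182-5p level had a Wilson 95% interval of 1187 to 1255 CPM. AM608 5, a mouse given the control oligonucleotide, was the next of all libraries. It was 11.1-fold above the median of the other 7 AM608 libraries of batch 2 for miR-183-5p, 9.44-fold for miR-182-5p and 10.5-fold for miR-96-5p. AM132 5 was 1.80-fold, 2.28-fold and 2.31-fold above its group's median in the same order. These 3 libraries also held the 3 highest sums of 7 epithelial miRNAs, 20243, 6532 and 953 CPM for AM132 6, AM608 5 and AM132 5, against at most 706 in the other 41. Each comparison is therefore given with and without them.

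AM132 and AM608 differ in the target of the injected oligonucleotide, both groups being obese. No member passed the test, with batch as a term and 16 libraries in each group. miR-183-5p averaged 6.14 ± 1.27 (SD) log2 CPM with AM132, against 5.55 ± 1.25 with AM608, and its log2 fold change (AM132 minus AM608) was 0.69 ± 0.49 (SE; edgeR, adjusted p = 0.955). miR-182-5p had means of 5.87 ± 1.38 and 5.26 ± 1.13 and a fold change of 0.99 ± 0.54 (edgeR, adjusted p = 0.925). miR-96-5p had means of 3.73 ± 1.40 and 3.07 ± 1.19 and a fold change of 1.10 ± 0.56 (edgeR, adjusted p = 0.925). The count was 0 of 3 members, against 0.358% of the 559 miRNAs tested. Unadjusted, the edgeR p was 0.176 for miR-183-5p, 0.0755 for miR-182-5p and 0.0575 for miR-96-5p. Thus 0 of 3 were under 0.05, beside 23 of all 559 miRNAs tested. DESeq2 called 0 of 3 too, beside 0.358% of the 559.

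These fold changes rested on AM132 6. Without it they were -0.06 ± 0.38 for miR-183-5p, 0.00 ± 0.35 for miR-182-5p and 0.03 ± 0.37 for miR-96-5p. Without the 3 libraries they were 0.18 ± 0.34, 0.22 ± 0.29 and 0.28 ± 0.31 (adjusted p = 0.967, 0.951 and 0.943 in edgeR; 0.178% of 562 miRNAs were called). DESeq2, which replaced the count of AM132 6 as an extreme value, gave -0.08 ± 0.38, -0.02 ± 0.35 and 0.01 ± 0.37. AM132 libraries lay above the AM608 median of their batch in 13 of 16 cases for miR-183-5p, in 14 of 16 for miR-182-5p and in 13 of 16 for miR-96-5p. Without the 3 libraries this was 11, 12 and 11 of 14. A permutation test within batch on log2 CPM gave 2-sided p = 0.208 for miR-183-5p, 0.192 for miR-182-5p and 0.164 for miR-96-5p.

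The difference between AM132 and AM608 was larger in batch 2 than in the other batches, but the batches were not shown to differ. For miR-182-5p the edgeR log2 fold change was -0.09 ± 0.52 in batch 1 alone, 1.80 ± 0.93 in batch 2 and 0.51 ± 0.36 in batch 3. miR-96-5p stood at 0.04 ± 0.63, 1.80 ± 0.93 and 0.61 ± 0.39. miR-183-5p stood at 0.14 ± 0.49, 1.19 ± 0.88 and 0.30 ± 0.41. Within batch 2, without the 3 libraries, they were 0.24 ± 0.45, 0.28 ± 0.43 and 0.14 ± 0.58 for miR-182-5p, miR-96-5p and miR-183-5p. The edgeR test of batch by treatment gave an adjusted p of 0.989 for each member. It called 0% of 559 miRNAs, with 23 at an unadjusted p under 0.05.

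**Figure D2:**
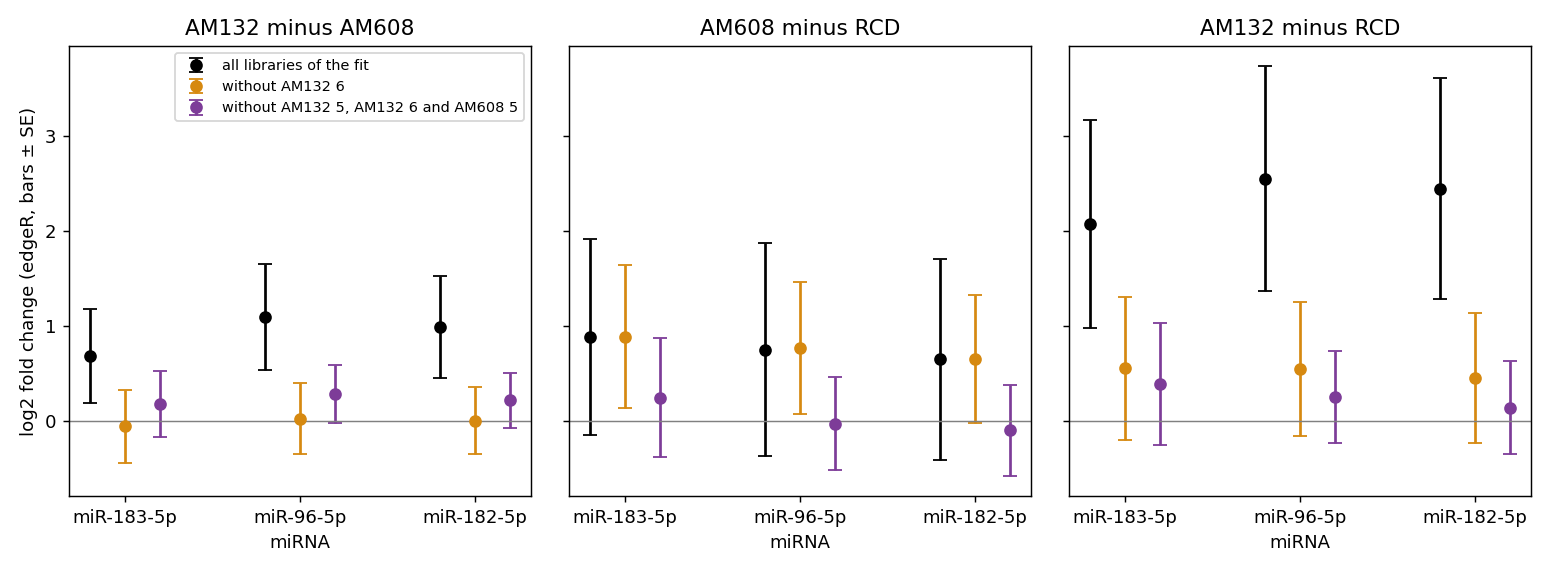
edgeR log2 fold changes (y axis, bars ± SE) of the 3 members (x axis) in 3 comparisons, with all libraries of the fit (black), without AM132 6 (orange) and without AM132 5, AM132 6 and AM608 5 (purple). Without the 3 libraries every value lies between -0.10 and 0.39, whereas with them AM132 minus RCD lies between 2.08 and 2.55.

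Obese and lean mice could be compared within batch 2 only, and both comparisons share the 4 RCD libraries. In AM608 minus RCD (8 and 4 libraries) the log2 fold change was 0.89 ± 1.03 for miR-183-5p, 0.65 ± 1.06 for miR-182-5p and 0.75 ± 1.12 for miR-96-5p (edgeR, adjusted p = 0.901, 0.948 and 0.937). None of the 3 passed, and 0% of 599 miRNAs did in edgeR or DESeq2, with 30 at an unadjusted p under 0.05 in edgeR. The sign of the mean and that of most libraries differed: only 2 of 8 AM608 libraries, AM608 5 and AM608 9, lay above the RCD median for each member. Without the 3 libraries the fold changes were 0.24 ± 0.63, -0.10 ± 0.48 and -0.03 ± 0.49. On the log2 CPM scale, where extreme libraries weigh less, the differences were 0.00, -0.05 and 0.10 (exact permutation, 2-sided p = 1, 0.956 and 0.899).

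In AM132 minus RCD (8 and 4 libraries) the log2 fold change was 2.08 ± 1.09 for miR-183-5p, 2.45 ± 1.16 for miR-182-5p and 2.55 ± 1.18 for miR-96-5p (edgeR, adjusted p = 0.497, 0.488 and 0.488). Unadjusted, the edgeR p was 0.072, 0.0482 and 0.0434, so 2 of 3 were under 0.05. Again 0 of 3 passed, beside 0% of 599 miRNAs in edgeR and in DESeq2, with 59 at an unadjusted p under 0.05 in edgeR. Without AM132 6 these values were 0.55 ± 0.76, 0.45 ± 0.68 and 0.55 ± 0.71. Without the 3 libraries they were 0.39 ± 0.64, 0.14 ± 0.49 and 0.25 ± 0.49, and 0.17% of 589 miRNAs were called. DESeq2 gave 0.49 ± 0.74 for miR-183-5p with the count of AM132 6 replaced, and 0.39 ± 0.54 and 0.44 ± 0.54 for miR-182-5p and miR-96-5p with those of AM132 6 and AM608 5 replaced. Of the 8 AM132 libraries 6, 5 and 6 lay above the RCD median for miR-183-5p, miR-182-5p and miR-96-5p. The exact permutation test on log2 CPM gave 2-sided p = 0.384, 0.479 and 0.372 in that order.

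Batch, which moved most miRNAs, did not pass the test for any member. Among the RCD libraries 55.4% of 598 miRNAs differed between batch 4 (8 libraries) and batch 2 (4 libraries), but 0 of 3 members did. The log2 fold change (batch 4 minus batch 2) was 0.59 ± 0.33 for miR-183-5p, 0.57 ± 0.29 for miR-182-5p and 0.71 ± 0.45 for miR-96-5p (edgeR, adjusted p = 0.146, 0.116 and 0.196). RCD 11, the lowest library of batch 2, set much of it: without it the values were 0.36 ± 0.32, 0.36 ± 0.29 and 0.44 ± 0.46. With all RCD libraries the unadjusted edgeR p was 0.0959, 0.0713 and 0.135, beside 348 of 598 miRNAs under 0.05. Without the filter it was 0.0264, 0.0183 and 0.0454 (adjusted 0.0974, 0.0738 and 0.146), beside 447 of 1413 under 0.05. All 3 shifted the same way, and since the members move together these are not 3 separate results. Marker miRNAs were among those that differed between these batches, to be read beside the 55.4% of all 598. In batch 4 of RCD 4 of 6 neuronal miRNAs were higher. Lower were 4 of 4 pituitary and endocrine, 4 of 5 tested ciliated-cell, 3 of 7 epithelial, 2 of 3 tested muscle and 1 of 1 liver miRNAs. For choroid plexus 0 of 3 passed, and for red cells 0 of 3. The part of these markers in the members' values was not tested. Across batches 1, 2 and 3 of the obese mice 72.3% of 559 miRNAs differed, and again 0 of 3 members (edgeR, adjusted p = 0.216 for miR-183-5p, 0.168 for miR-182-5p and 0.0846 for miR-96-5p). Batch 2 minus batch 1 was 0.72, 0.80 and 0.99 in that order with all libraries, and -0.43, -0.68 and -0.57 without the 3 libraries, where 72.4% of 562 miRNAs differed and 0 of 3 members.

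The members rose and fell together from library to library, far more closely than each varied. Within a group and batch, over the 44 libraries, the SD of the level was 1.19 log2 units for miR-183-5p, 1.18 for miR-182-5p and 1.24 for miR-96-5p. The SD of the log2 ratio was 0.28 between miR-183-5p and miR-182-5p, 0.37 between miR-183-5p and miR-96-5p, and 0.32 between miR-96-5p and miR-182-5p. Without the 3 libraries the levels had SDs of 0.89, 0.77 and 0.87, and the ratios 0.26, 0.37 and 0.34. The ratios thus varied less than the levels both with and without these libraries. After subtracting the mean of each group and batch, Spearman's rho of each member with the mean of the other 2 was 0.946 for miR-183-5p, 0.959 for miR-182-5p and 0.940 for miR-96-5p over 44 libraries, and 0.942, 0.948 and 0.919 over 41, as a description. The points share the library's depth and scaling. AM132 6 and AM608 5 were first and second for all 3 members, and AM608 8 and AM132 11 were among the lowest 4 for all.

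**Figure D3:**
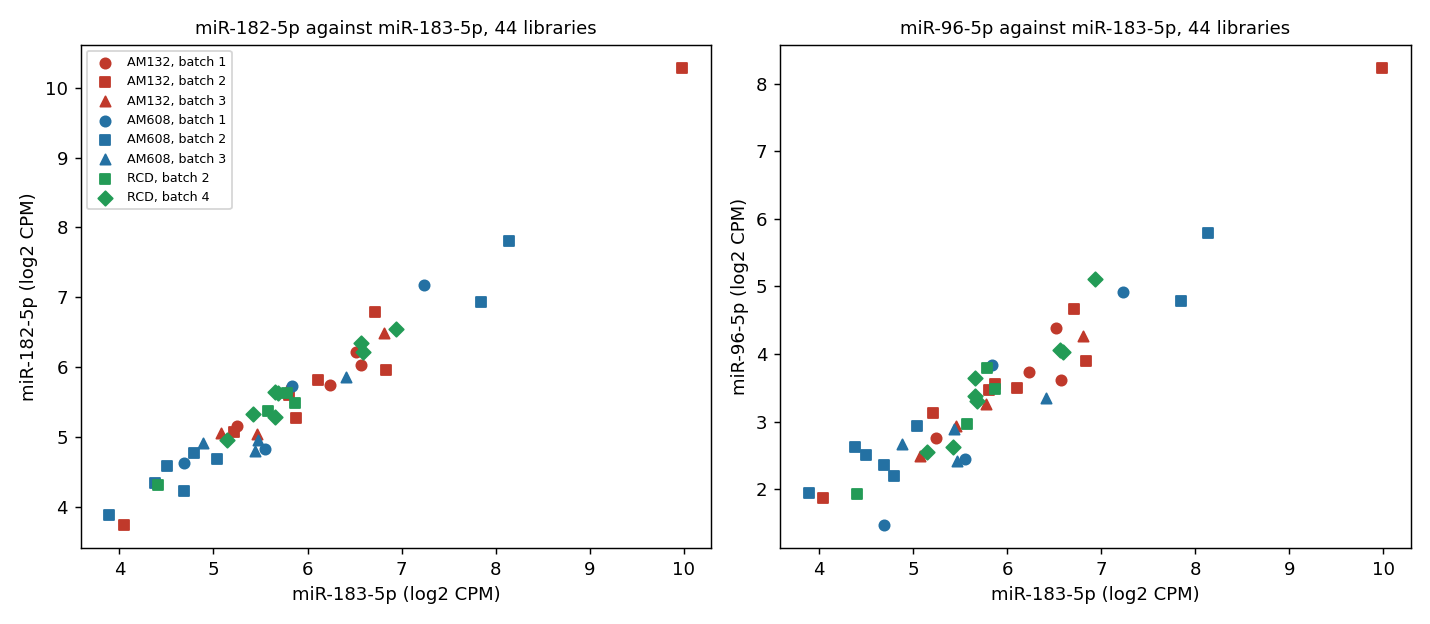
miR-182-5p (left) and miR-96-5p (right) against miR-183-5p, all in log2 CPM, with 1 point per library; colour gives the group and marker shape the batch. Libraries of all groups and batches fall along 1 band, with AM132 6 at its upper end.

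The proportions of the members were much alike in the groups. The median ratio of miR-182-5p to miR-183-5p reads was 0.864 over the 44 libraries and that of miR-96-5p to miR-183-5p 0.179. In log2 units the first was -0.27 ± 0.28 (SD) with AM132, against -0.29 ± 0.31 with AM608, 16 libraries each (difference 0.02, permutation within batch, 2-sided p = 0.828, adjusted over the 2 ratios 0.828). The other was -2.45 ± 0.33 and -2.54 ± 0.50 (difference 0.10, permutation p = 0.5, adjusted 0.828). In RCD the first ratio averaged -0.21 ± 0.13 in batch 2 (n = 4) and -0.21 ± 0.15 in batch 4 (n = 8), and the other -2.44 ± 0.29 and -2.41 ± 0.34. AM132 6 had the highest value of both ratios among the 44 libraries, 0.31 and -1.75 in log2 units, so miR-182-5p exceeded miR-183-5p there. AM608 9 had the lowest ratio of miR-182-5p to miR-183-5p, -0.92, followed by AM132 10 at -0.88. By level of miR-183-5p these libraries ranked 3 and 6 of the 44.

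Of 404 other miRNAs with a mean of at least 10 CPM, the 5 most like the mean of the 3 members over 44 libraries were epithelial miRNAs of the miR-200 family, known for keeping cells in an epithelial state. Spearman's rho, within group and batch, was 0.748 for miR-200c-3p, 0.729 for miR-200b-3p, 0.727 for miR-200a-3p, 0.711 for miR-429-3p and 0.632 for miR-141-3p. miR-141-3p reached the minimum mean only through AM132 6, AM608 5 and AM132 5 (440.8, 358.7 and 28.1 CPM), where the cluster was high too. In the other 41 libraries it had at most 9.42 CPM (median 1.28), so its place in this list rests on those 3. Over the 41 libraries without AM132 5, AM132 6 and AM608 5 the first 4 were the same, at 0.655, 0.622, 0.621 and 0.584, and the fifth was miR-135a-2-3p at 0.525. These are descriptions over libraries that share depth and scaling. The likeness varied by batch. For the 5 miR-200 family miRNAs rho ran from 0.842 to 0.956 over the 20 libraries of batch 2, but from -0.31 to 0.238 over the 8 of batch 1. Over the 8 of batch 3 it ran from 0.333 to 0.786, and over the 8 of batch 4 from 0.333 to 0.69. For miR-200a-3p it was 0.956, 0.0952, 0.786 and 0.476 in batches 2, 1, 3 and 4. miR-135a-2-3p had 0.0962, 0.619, 0.31 and 0.667 in the same order. AM608 3, the highest library of batch 1 for all 3 members, had only 18.2 CPM of miR-200a-3p and 12.9 of miR-200b-3p, whereas AM608 9 had 318.2 and 168.3.

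**Figure D4:**
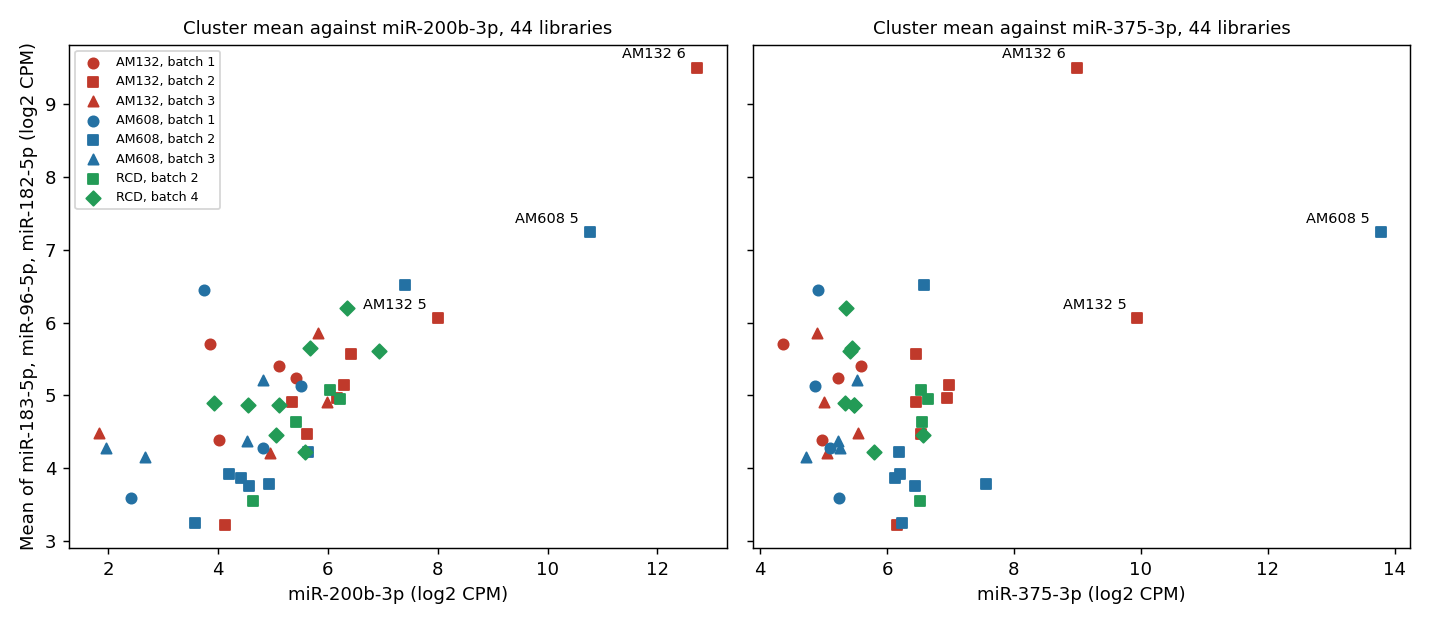
Mean log2 CPM of the 3 members (y axis) against miR-200b-3p (left) and miR-375-3p (right), both in log2 CPM, with 1 point per library; colour gives the group and marker shape the batch. AM132 6 has the highest cluster mean and the highest miR-200b-3p, while miR-375-3p is highest in AM608 5.

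Markers of other cell types moved with the members in some of these libraries, and their part in the results was not tested. The epithelial list had 7 of 7 miRNAs with counts; its sum was 156 to 20243 CPM in AM132, 145 to 6532 in AM608 and 169 to 521 in RCD, and without the 3 libraries at most 500 in AM132 and 706 in AM608. No member of the list was at 0 throughout a group. In AM132 6 miR-200a-3p stood at 6786 CPM and miR-200b-3p at 6747, against medians of 53.6 and 32.6 in the 41 libraries. The list of pituitary and endocrine miRNAs (4 of 4 with counts, none at 0 throughout a group) summed to 25820.4 to 160377 CPM in AM132, 28359 to 193283 in AM608 and 26663 to 132669 in RCD. AM608 5 was the highest of the 44, and AM132 5 (149598) and AM132 6 (106618) lay within the range of the other 17 libraries of batch 2, whose median was 123559. Its leading members were miR-7a-5p and miR-7b-5p, which are abundant in hypothalamus too. miR-375-3p, an endocrine miRNA, was highest in AM608 5 (14063 CPM), with 986 in AM132 5 and 509 in AM132 6. All 3 libraries lay above the other 41, where it reached at most 188.5 CPM (median 46.1). The order of miR-375-3p over the 3 libraries was not that of the cluster. Its rho with the members was 0.269 over 44 libraries and -0.07 over 41. The muscle list (4 of 4 with counts) summed to 3144 CPM in AM132 6, with miR-1a-3p at 2877 CPM and miR-133a-3p at 244, its leading members, against at most 696 in the 41 libraries, and to 273 in AM608 5 and 488 in AM132 5. The list of choroid plexus and retinal pigment epithelium (3 of 3 with counts, led by miR-204-5p and miR-204-3p) summed to 2604 CPM in AM132 6, near the median of 2601 in the 41 libraries.

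The neuronal sum, led by miR-9-5p and miR-128-3p, was lowest in these 3 libraries: 107336 CPM in AM132 6, 109069 in AM608 5 and 112597 in AM132 5, against 113703 or more in the other 41. It was low throughout batch 2, where the other 17 libraries had a median of 125769, against 287601 in the 41. In the last 3 lists none of these libraries lay beyond the range of the others. Ciliated-cell miRNAs (6 of 6 with counts, led by miR-34c-5p and miR-34b-3p) summed to 1260 CPM in AM132 6, 1480 in AM608 5 and 1738 in AM132 5, against a median of 481 and a highest value of 1975 in the 41. The single liver miRNA, miR-122-5p, stood at 41.4, 39.2 and 42.9 CPM in these libraries against at most 64.2. Red-cell miRNAs (3 of 3, led by miR-451a and miR-486a-5p) summed to 865, 376 and 972 CPM against 342 to 2292 in the 41. In AM132 minus AM608 the 8 lists gave 1 call in all, a ciliated-cell miRNA that was higher, beside 0.358% of all 559 miRNAs tested. Of 6 tested epithelial miRNAs 0 passed, with a median log2 fold change of 1.05 with all libraries and 0.27 without the 3. In the comparisons of obese mice with RCD 0 passed in any list, beside 0% of all 599 miRNAs tested in each. The epithelial median was 2.37 for AM608 minus RCD and 3.58 for AM132 minus RCD (-0.33 and -0.17 without the 3 libraries). The median over all tested miRNAs ran from -0.013 to 0.013 in these fits.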

How the data were processed

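Small RNA was sequenced from hypothalamus of 44 mice. Per the labels' protocols, RNA (miRNeasy, integrity number above 8.4) went into NEBNext small RNA libraries at 200 ng each, sequenced on a NextSeq 500. The authors deposited raw read counts per mature miRNA, which are unnormalised. FastQC is named in the submitters' processing notes; trimming, aligner, miRNA release and build are not given in the sources used here, so it could not be checked how reads shared by similar miRNAs were assigned. Each column's group and number gave its sample, and 0 belonged to other samples. A second deposited table, of tRNA fragments, was not used.

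Tests used edgeR 4.0.16 in R 4.3.3: filterByExpr (minimum count 10, minimum total 15), TMM scaling and quasi-likelihood F tests, adjusted by Benjamini-Hochberg over all tested miRNAs, with calls at 0.05. Dividing the absolute log2 fold change by the root of F gave its SE. Log2 CPM used a prior count of 2, and ratios used counts with 0.5 added. Permutation tests were 2-sided, with 100000 resamples within batch or every split of 8 against 4 libraries; those on log2 CPM were added after the data were seen and are printed unadjusted (adjusted over the 4 comparisons of a member they ran from 0.383 to 1). DESeq2 1.42.0 and other alternatives are described in the closing section. The members and marker lists were chosen with earlier results of these data known. Named miRNAs were the members, their other arms, those sharing bases 2 to 7, the 2 most abundant of each list, and the 5 most like the cluster; miR-375-3p was named after its values were seen. On simulated data of the same design the test found 99% of miRNAs changed by 1 (log2) between AM132 and AM608 (559 miRNAs), 90% for AM608 against RCD and 91% for AM132 against RCD (599 miRNAs), and 87% between RCD batches (598 miRNAs). For a change of 0.5 these were 90%, 56%, 49% and 55%. The changed miRNAs were drawn from all those tested, so these shares need not hold for the 3 members. The members' SE was 0.49 to 0.56 in AM132 minus AM608. It was 1.03 to 1.12 in AM608 minus RCD and 1.09 to 1.18 in AM132 minus RCD. No library duplicated another within a group (smallest chi-square per degree of freedom 4.55).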

Additional observations from a re-analysis of the deposited data

Results flagged for a closer look

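Of 40 sets of 4 or 8 libraries examined (the 3 members and 2 ratios in each group and batch), 5 held a library far from the others, where chance alone flags about 1 set in 20. In AM132 of batch 2 the library AM132 6 was far above the other 7 for each member: 9.98 log2 CPM for miR-183-5p (next 6.83), 8.24 for miR-96-5p (next 4.67) and 10.29 for miR-182-5p (next 6.79). These are not separate findings, since the members move together. In AM608 of batch 1 the log2 ratio of miR-182-5p to miR-183-5p was -0.73 in AM608 2, with the next library at -0.11. In AM608 of batch 3 miR-182-5p was highest in AM608 14, at 5.86 log2 CPM against 4.96 in the next library.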

How the results depend on the processing

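No tested member passed in any comparison under any alternative run. Between groups, the edgeR and DESeq2 alternatives called only 0% to 0.493% of all miRNAs tested. Between RCD batches they called 22.8% to 63.4%, and across batches 1, 2 and 3 of the obese mice 71.9% and 72.4%. The alternatives were RLE scaling, DESeq2, no filter, a minimum of 10 CPM, no batch term, single batches, all 44 libraries, left-out libraries, a block for the replicate number and, added after the data were seen, permutation on log2 CPM and batch 2 without the 3 libraries. Of 173 log2 values under an alternative 156 kept their direction, 16 reversed and 1 was 0 to 5 decimals (miR-183-5p in AM608 minus RCD by permutation on log2 CPM), none with a change of call. The minimum of 10 CPM removed miR-96-5p from AM132 against AM608.

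Reversed values in AM132 minus AM608 were -0.078 (miR-183-5p) and -0.015 (miR-182-5p) with DESeq2, which replaced the count of AM132 6, -0.058 for miR-183-5p without AM132 6, and -0.090 for miR-182-5p in batch 1 alone. In AM608 minus RCD they were -0.035 for miR-96-5p and -0.079 for miR-182-5p with DESeq2, -0.030 and -0.099 without the 3 libraries, -0.036 and -0.088 without AM608 5, and -0.050 for miR-182-5p by permutation on log2 CPM. Batch 2 minus batch 1 reversed without the 3 libraries (-0.43, -0.57 and -0.68 for miR-183-5p, miR-96-5p and miR-182-5p). The log2 ratio of miR-182-5p to miR-183-5p differed by -0.046 without the 3 libraries and by -0.014 without AM132 6. Where libraries were left out, their absence made the change. For DESeq2, the single batch and the permutation scale the cause was not tested.

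AM132 minus AM608 was 0.97, 1.30 and 1.44 without AM608 5 for miR-183-5p, miR-182-5p and miR-96-5p. Leaving out each RCD library of batch 2 gave 0.63 to 1.00 for miR-183-5p, 0.41 to 0.80 for miR-182-5p and 0.46 to 1.04 for miR-96-5p in AM608 minus RCD, and 1.83 to 2.20, 2.22 to 2.60 and 2.27 to 2.84 in AM132 minus RCD. Between RCD batches it gave 0.36 to 0.72, 0.36 to 0.74 and 0.44 to 1.01. With the replicate number as a block the AM132 minus AM608 values were 0.48 for miR-183-5p, 0.48 for miR-182-5p and 0.56 for miR-96-5p. Over replicates 9 to 12 of batch 2 the block gave 0.42, 0.10 and 0.22 for AM608 minus RCD and 0.24, 0.02 and 0.14 for AM132 minus RCD. In each block fit 0 of 3 members were called, beside 0.358% of 559 miRNAs, 0% of 581 and 0.172% of 581 in that order. The main tests treated the libraries as unpaired, because the labels state no pairing and not every same-numbered pair had deviations correlated above 0.1. The data hint at pairing, which these checks do not settle. The correlation was above 0.1 in 13 of 16 pairs of AM132 and AM608 and in 5 of 8 with RCD. Between AM132 and AM608 it ran from -0.46 to 0.72 (median 0.34). Within the batch 8 of 16 AM132 libraries correlated best with their own number. At 7 to 1195 counts per library miR-96-5p has the widest counting error of the 3.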
